A study of Mus musculus with 12 samples.

Results

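The genes described here are 9 genes for proteins that write, remove or read DNA methylation, taken by symbol from a table of estimated counts in adult mouse cortex: Tet1, Tet2, Tet3, Dnmt1, Dnmt3a, Mbd1, Mbd2, Mbd3 and Tdg. They are 9 of the 21713 symbols that stand on a single row of that table. The libraries came from whole cortex of 3 Tet1 genotypes, labelled KO, HxD and WT, with 4 libraries each, and were made from oligo d(T)-selected mRNA. All groups share the tissue and the adult stage, and no treatment is labelled. The labels give no strain, sex or age in weeks, and do not say how the KO or HxD allele was made or whether each library is a separate animal, so the p-values rest on a spread between libraries that may be technical. HxD is also the name of the iron-binding motif of TET enzymes, and the title of the study contrasts catalytic with non-catalytic functions of TET1.

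In mammals, DNMT1 copies methylation of CpG sites onto new DNA strands and DNMT3A sets it anew, and in neurons DNMT3A also methylates cytosines outside CpG. TET1, TET2 and TET3 oxidise 5-methylcytosine to 5-hydroxymethylcytosine and further forms, and the glycosylase TDG cuts out the most oxidised forms so that base excision repair can restore cytosine. MBD1 and MBD2 bind methylated CpG, while MBD3, which lacks strong binding to methylated DNA in mammals, is the alternative to MBD2 in the chromatin-remodelling complex NuRD. Neurons are known for a high content of 5-hydroxymethylcytosine, and TET3 is known as an abundant TET enzyme of the mouse brain.

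CpG, the site on which these proteins act, is also dense at the start of several of their own genes. Start-site windows of 300 bases (250 before and 50 after the annotated start, RefSeq, build GRCm38.p6) were counted for 7 of the 9 genes. There were 11 windows in all. Windows of Mbd1 and Mbd2 were not included. Below, CpG is in capitals in the windows of Tet1 (chr10:62887275-62887574, minus strand), the gene altered in the study, and of Tet2 (chr3:133544341-133544640, minus strand), the one TET gene measured well above 0 in every library, printed 5′ to 3′.
Tet1: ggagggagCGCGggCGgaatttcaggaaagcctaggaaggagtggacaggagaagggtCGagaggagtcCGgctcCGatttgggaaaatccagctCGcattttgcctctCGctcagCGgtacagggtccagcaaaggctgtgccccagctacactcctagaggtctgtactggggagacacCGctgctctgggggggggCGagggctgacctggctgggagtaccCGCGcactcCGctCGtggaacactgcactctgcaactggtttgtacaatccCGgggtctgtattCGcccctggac
Tet2: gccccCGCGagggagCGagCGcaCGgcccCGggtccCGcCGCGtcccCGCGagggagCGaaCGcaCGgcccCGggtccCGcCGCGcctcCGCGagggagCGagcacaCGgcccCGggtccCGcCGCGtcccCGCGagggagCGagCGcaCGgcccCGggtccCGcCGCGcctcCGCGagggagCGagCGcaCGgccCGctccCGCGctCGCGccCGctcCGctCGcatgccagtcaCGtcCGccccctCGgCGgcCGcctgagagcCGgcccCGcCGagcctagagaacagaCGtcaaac
The letters CG, which read the same on both strands, occur 17 times in the Tet1 window and 57 times in the Tet2 window. Of all 32851 such windows, 31.4% hold at least as many as Tet1 and 0.152% hold at least as many as Tet2. The median of all windows is 7. Dnmt3a has windows with 46, 47 and 18 CpG at 3 annotated starts, the first pair overlapping, and Dnmt1 has windows with 33, 12 and 2. Tet3 and Mbd3 have 22 each and Tdg has 26. The table gives 1 value per symbol, so these starts cannot be told apart in it.

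Library totals of estimated counts were 5791642 to 9535409 in KO, 7767787 to 10347432 in HxD and 8310783 to 10915574 in WT. CPM below is the estimated count per 1000000 counts of the tested genes, scaled by TMM. The summed level of 6 neuronal markers was 7566 to 9071 CPM in KO, 5142 to 9193 in HxD and 6323 to 9338 in WT, and 3 liver markers together stayed at or below 1.70 CPM in every library. Markers of tissue next to the cortex varied, with 8 striatal markers summing to 292 to 436 CPM in KO, 257 to 1123 in HxD and 401 to 670 in WT. A gene listed at 0 may still have been transcribed, because Gapdh, needed for glycolysis in all cells, had 0 in each of the 12 libraries. In all, 23.7% of symbols had 0 throughout. Of the 9 genes, 7 passed the filter on low counts and entered the edgeR fit of 11693 genes, and Tet1 and Tet3 did not.

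The TET genes come first, since Tet1 is the gene the genotypes alter. Tet1 was listed at 0 in KO 1 to 4, had estimated counts of 1, 0, 63 and 67 in HxD 1 to 4, and was listed at 0 in WT 1 to 4. The gene therefore does not check the KO label, because WT is at 0 too. Counts above 1 were seen in HxD 3 and HxD 4 alone, at 7.38 and 6.54 CPM. On log2(CPM + 0.5), HxD stood 2.02 above WT, and KO minus HxD was -2.02 (exact permutation test, two-sided, p = 0.143 for both, with 0.0286 the lowest that this design can reach). Tet3 was listed at 0 in all 12 libraries.

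Tet2 was the TET gene with values throughout. It stood at 45.6, 38.3, 21.1 and 42.5 CPM in KO 1 to 4, at 23.8, 25.4, 53.5 and 61.3 CPM in HxD 1 to 4, and at 42.1, 41.2, 31.7 and 36.6 CPM in WT 1 to 4. HxD split into a lower and a higher pair on either side of all WT libraries, and in KO library 3 lay below the rest. The higher HxD pair, HxD 3 and HxD 4, are the same libraries that held Tet1 counts. Their striatal marker sums were the highest and the lowest of HxD, 1123 and 257 CPM, and their totals were 8429936 and 10347432 counts. The group means were 36.9 ± 10.9 CPM in KO, 41 ± 19.2 in HxD and 37.9 ± 4.78 in WT (SD, n = 4 each). Fold changes were 0.972 for KO against WT, with a 95% confidence interval of 0.582 to 1.62, 1.08 for HxD against WT (0.649 to 1.8) and 0.899 for KO against HxD (0.539 to 1.5). These intervals allow a 1.5-fold change in either direction for KO against HxD, and the edgeR adjusted p-values were 0.988, 0.999 and 0.919.

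**Figure D1:**
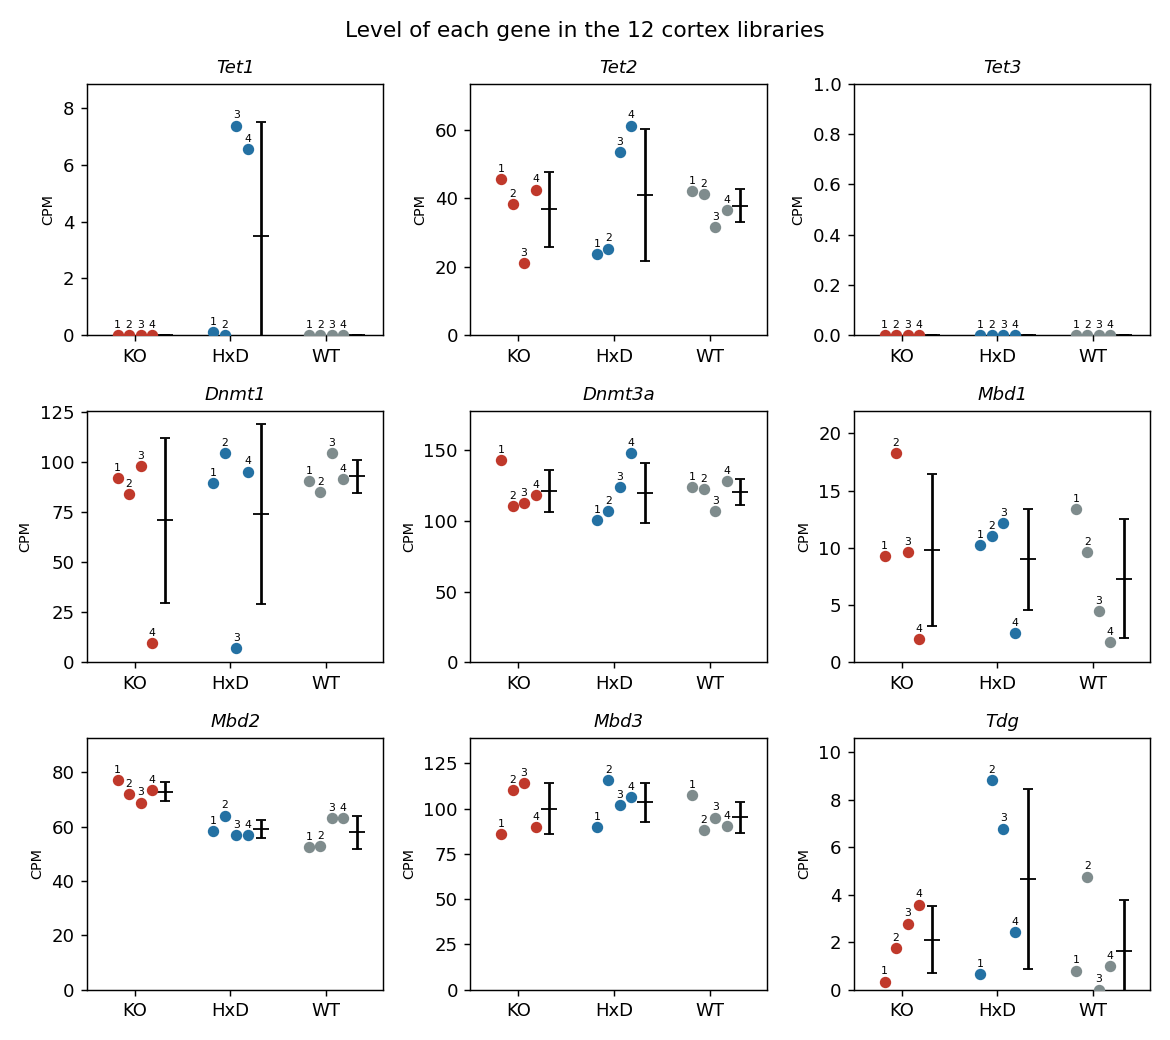
CPM (vertical axis, from 0) of the 9 genes in each library, by genotype, with the replicate number beside each point and the mean and SD of the 4 libraries to its right (SD bars are cut at 0). The 4 KO libraries of Mbd2, at 68.9 to 77.2 CPM, lie above all HxD and WT libraries, while Dnmt1 falls to 9.74 CPM in KO 4 and 7.38 CPM in HxD 3.

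Of the methyltransferases, Dnmt3a was level over the genotypes. It stood at 142.8, 110.1, 112.5 and 118 CPM in KO 1 to 4, at 100.6, 107, 124 and 148 CPM in HxD 1 to 4, and at 124, 122.5, 107 and 128 CPM in WT 1 to 4. All groups overlapped. The means were 121 ± 15 CPM in KO, 119.8 ± 21.2 in HxD and 120.3 ± 9.16 in WT (SD, n = 4 each). The 95% intervals of the fold change were 0.824 to 1.22 in KO against WT, 0.828 to 1.23 in KO against HxD and 0.817 to 1.21 in HxD against WT, so a change of 1.25-fold or more lay outside each of them. The edgeR adjusted p-values were 0.995, 0.988 and 0.999 for these comparisons.

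Dnmt1 was close to level apart from a single library in each mutant. It stood at 92.3, 84.3, 98.0 and 9.74 CPM in KO 1 to 4, at 89.7, 104.8, 7.38 and 95.4 CPM in HxD 1 to 4, and at 90.5, 85.1, 104.6 and 91.7 CPM in WT 1 to 4. KO 4 held 57 estimated counts against 539 to 916 in the other KO libraries, and HxD 3 held 63 against 806 to 978 in the other HxD libraries. The other 10 libraries ranged from 84.3 to 104.8 CPM. The totals were 5791642 counts in KO 4, the lowest of all, and 8429936 in HxD 3, and the part of depth in the low Dnmt1 values was not tested. With all libraries the log2 fold changes were -0.39 ± 0.73 (SE) for KO against WT and -0.32 ± 0.73 for HxD against WT (edgeR adjusted p = 0.935 and 0.999). Without KO 4 and HxD 3, left out after their values were seen, they were -0.04 and 0.05 (adjusted p = 0.952 and 1).

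Steps of this kind were looked for in every tested gene. In 16.2% of the 11693 tested genes, the highest library of some genotype stood at least 8-fold above the lowest (CPM plus 0.5), and in 10.4% of the 8112 genes with a mean of at least 10 CPM. Among the 7 tested genes these were Dnmt1, by 9.62-fold in KO and 13.4-fold in HxD, and Tdg. The within-genotype SD of log2 CPM was 0.106 for Mbd2, 0.164 for Mbd3, 0.185 for Dnmt3a, 0.509 for Tet2, 1.12 for Mbd1, 1.27 for Tdg and 1.39 for Dnmt1, where the median tested gene has 0.335. RefSeq lists 4 transcripts for Mbd2, 2 for Mbd3, 9 for Dnmt3a, 6 for Tet2, 13 for Mbd1, 4 for Tdg and 7 for Dnmt1. The part of transcript number in the spread was not tested.

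**Figure D2:**
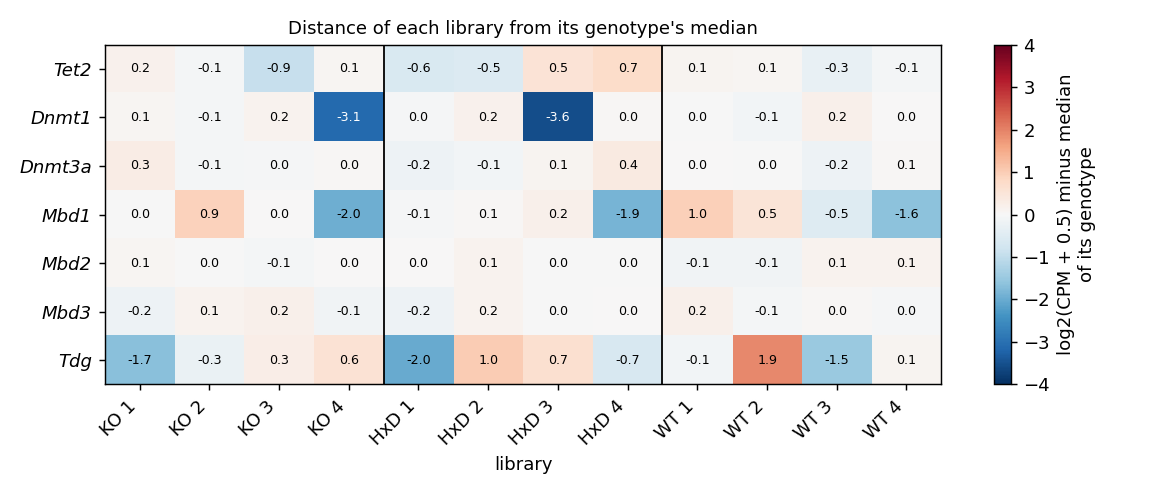
Distance of each library (columns) from the median of its genotype, in log2(CPM + 0.5), for the 7 tested genes (rows), with blue below and red above the median. Dnmt1 is dark in KO 4 and HxD 3 alone, Mbd1 is lowest in library 4 of every genotype, Tdg varies in all genotypes, and Dnmt3a, Mbd2 and Mbd3 are pale throughout.

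Among the methyl-CpG binding genes, Mbd2 set KO apart from the other genotypes. It stood at 77.2, 72.2, 68.9 and 73.5 CPM in KO 1 to 4, at 58.5, 64.1, 57.0 and 56.9 CPM in HxD 1 to 4, and at 52.6, 52.8, 63.2 and 63.2 CPM in WT 1 to 4. The lowest KO library lay above the highest library of HxD and of WT, while HxD and WT overlapped. The means were 72.9 ± 3.46 CPM in KO, 59.1 ± 3.39 in HxD and 57.9 ± 6.07 in WT (SD, n = 4 each). Mbd2 was 1.26-fold higher in KO than in WT (log2 0.33 ± 0.09 SE, 95% interval of the fold 1.10 to 1.44) and 1.23-fold higher in KO than in HxD (log2 0.30 ± 0.09, interval 1.08 to 1.41). Between HxD and WT the fold was 1.02, with an interval of 0.893 to 1.17.

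The edgeR test did not call these Mbd2 differences. The unadjusted p-values of 0.00304 and 0.00541 became 0.231 and 0.222 after adjustment over all genes, and limma-voom gave 0.338 and 0.286. The DESeq2 Wald test gave adjusted p-values of 0.028 and 0.0449 and called both. Libraries of 2 groups lay wholly apart for 7.20% of tested genes in KO against WT and for 7.59% in KO against HxD, so Mbd2 is 1 of 842 and 1 of 887 such genes. Both comparisons share the KO libraries. KO held the shallowest libraries, KO 4 at 5791642 and KO 1 at 5853428 counts, and the KO 3 total was 9535409. The part of depth in the Mbd2 values was not tested. The longest Mbd2 transcript is short, at 1953 bases. Short transcripts minus long ones gave 0.00317, 0.21, 0.17 and -0.02 in median log2 in KO 1 to 4. The difference was -0.04, 0.18, -0.08 and -0.15 in HxD 1 to 4 and -0.17, -0.16, 0.00302 and 0.00374 in WT 1 to 4. With that trend of each library removed, a step chosen after the data were seen, the log2 fold change against WT was 0.27 (edgeR adjusted p = 0.301). Summed markers of astrocytes were at 2206 to 2504 CPM in KO, 1900 to 2609 in HxD and 1811 to 2344 in WT, and those of oligodendrocytes at 3012 to 3560 CPM in KO, 1357 to 3980 in HxD and 1865 to 4441 in WT. Markers of excitatory cortical neurons summed to 2226 to 2690 CPM in KO, 2330 to 3370 in HxD and 2549 to 3732 in WT, and those of microglia to 174 to 199 CPM in KO, 188 to 220.3 in HxD and 197 to 229 in WT. The groups overlapped for these 4 lists, and their part in the Mbd2 values was not tested. In such bulk tissue, fewer cells of a type and less RNA per cell cannot be told apart.

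Mbd3 did not follow Mbd2. It stood at 85.8, 110.1, 114 and 90.03 CPM in KO 1 to 4, at 89.8, 116, 102 and 106.5 CPM in HxD 1 to 4, and at 107, 88.3, 95.04 and 90.5 CPM in WT 1 to 4. All 3 groups overlapped, with means of 100 ± 14.1 CPM in KO, 104 ± 10.9 in HxD and 95.3 ± 8.51 in WT (SD, n = 4 each). The intervals of the fold change were 0.879 to 1.25 for KO against WT, 0.910 to 1.30 for HxD against WT and 0.808 to 1.15 for KO against HxD.

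Mbd1 was lower and more scattered. It held 54, 137, 90 and 12 estimated counts in KO 1 to 4, 95, 85, 104 and 26 in HxD 1 to 4, and 117, 101, 37 and 18 in WT 1 to 4. Library 4 was the lowest of each genotype, at 2.05 CPM in KO, 2.54 CPM in HxD and 1.81 CPM in WT, and the 3 groups overlapped. With means of 9.81 ± 6.65 CPM in KO, 8.998 ± 4.38 in HxD and 7.32 ± 5.16 in WT (SD, n = 4 each), the fold for KO against WT was 1.34 with an interval of 0.437 to 4.12, and that of HxD against WT was 1.23 with 0.401 to 3.77. Folds well below 1 and well above 1 thus lay within these intervals.

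Tdg, the glycosylase, held at most 68 estimated counts in a library and varied widely between libraries. Its estimated counts were 2, 13, 26 and 21 in KO 1 to 4, 6, 68, 58 and 25 in HxD 1 to 4, and 7, 50, 0 and 10 in WT 1 to 4. The means were 2.11 ± 1.40 CPM in KO, 4.68 ± 3.79 in HxD and 1.64 ± 2.12 in WT (SD, n = 4 each). The fold was 2.81 in HxD against WT with an interval of 0.484 to 16.5, and 1.28 in KO against WT with 0.221 to 7.43. Between KO and HxD it was 0.455 with an interval of 0.0784 to 2.62. None passed edgeR (adjusted p = 0.999, 0.960 and 0.770), and the groups overlapped.

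**Figure D3:**
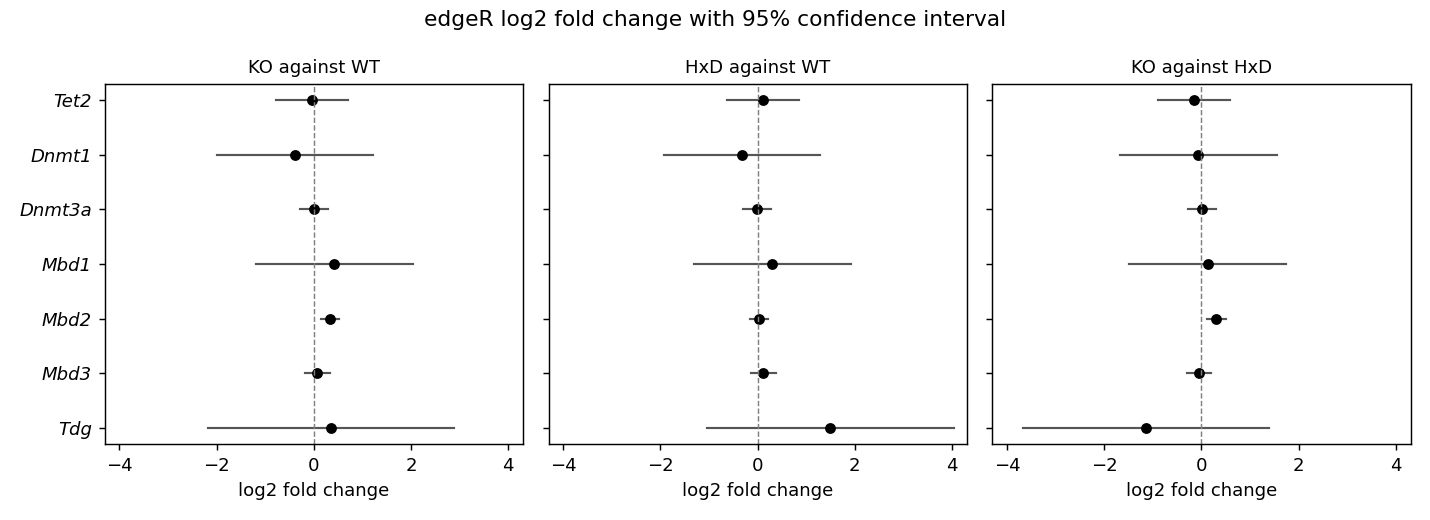
Log2 fold change from edgeR (horizontal axis) of the 7 tested genes for KO against WT, HxD against WT and KO against HxD, with points for the estimate and lines for the 95% confidence interval. Intervals are narrow for Dnmt3a, Mbd2 and Mbd3 and span several log2 units for Tdg, and those of Mbd2 lie above 0 in both comparisons with KO.

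Counted together, 0 of the 7 tested genes passed edgeR at an adjusted p below 0.05 in any comparison. Over all tested genes 0.154% passed in KO against WT, 0.898% in HxD against WT and 1.02% in KO against HxD, so 0 of 7 lies near the background. At an unadjusted p below 0.05 there was 1 gene, Mbd2, in KO against WT and in KO against HxD, and 0 in HxD against WT, where 9.48%, 11.6% and 4.05% of all tested genes had such a p. The DESeq2 Wald test called Mbd2 in the same pair of comparisons and none in HxD against WT, and limma-voom called 0 in all. The median log2 fold change of the 7 genes was 0.07 in KO against WT and 0.11 in HxD against WT, beside 0.01 for all tested genes in both, and these comparisons share the WT libraries. In KO against HxD it was -0.05, with 3 of 7 genes above 0 (5 of 7 in each comparison with WT), beside 0.0018 for all tested genes. Of all 11693 tested genes, 5950 were above 0 in KO against WT, 5994 in HxD against WT and 5874 in KO against HxD.

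Levels were compared between genes per length of the longest transcript. Median levels over 12 libraries were 59.3 CPM per kb for Mbd3, 32.4 (26.9 to 39.6) for Mbd2, 15.5 for Dnmt1, 12.4 for Dnmt3a, 4.33 for Tet2, 2.45 for Mbd1 and 0.596 for Tdg, and 0 for Tet1 and Tet3. Mbd3, at 51.6 to 69.8 CPM per kb, lay above Mbd2 in every library, and Mbd2 above Dnmt1, whose highest value was 17.9. Dnmt1 and Dnmt3a (10.4 to 15.3) overlapped, Dnmt3a lay above Tet2 (2.29 to 6.67), and Tet2, Mbd1 (0.460 to 4.67) and Tdg (0 to 2.52) overlapped with their neighbours. Of all tested genes, 90.7% had a lower median per kb than Mbd3, 82.3% than Mbd2, 67.0% than Dnmt1, 61.8% than Dnmt3a and 37.4% than Tet2. Dividing by the longest coding sequence instead put the median of Dnmt3a, at 44.2 CPM per coding kb, above that of Dnmt1, at 18.7. The order of the other medians stayed, but Dnmt3a (36.9 to 54.3 CPM per coding kb) then overlapped with Mbd2 (42.3 to 62.2).

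**Figure D4:**
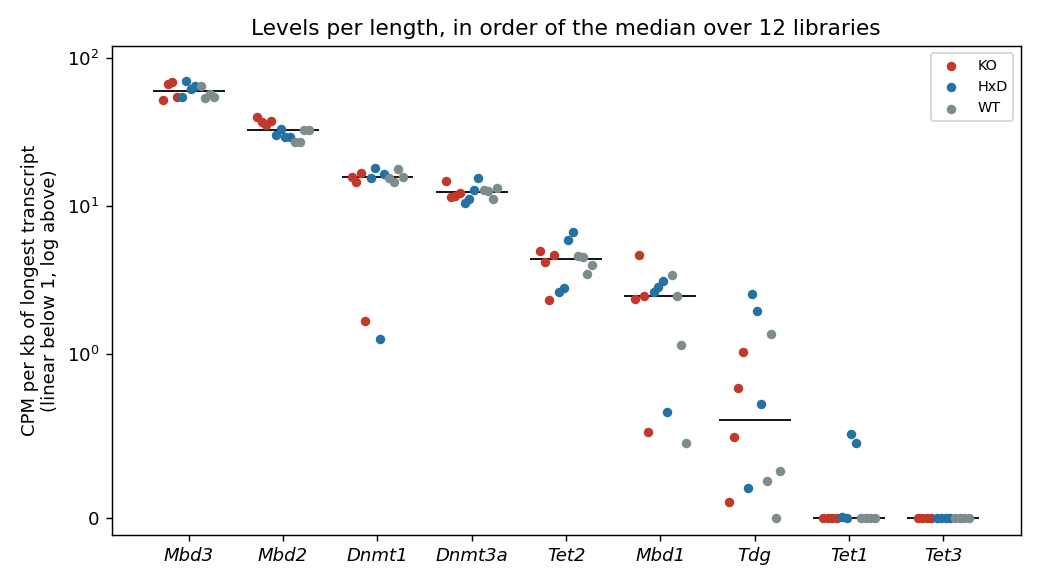
CPM per kb of the longest transcript (vertical axis, linear below 1 and logarithmic above) of the 9 genes in 12 libraries, coloured by genotype, with a line at the median. Mbd3 and Mbd2 stand apart at the top, the Dnmt1 points of KO 4 and HxD 3 fall to 1.66 and 1.26, Tet3 lies at 0 throughout, and Tet1 lies at 0 apart from HxD 1 (a single count), HxD 3 and HxD 4.

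The genes whose profiles over the 12 libraries were most like each tested gene were taken from 11544 candidates with a mean of at least 1 CPM, by the root mean square difference of centred log2(CPM + 0.5). For Mbd2 these were Atox1 at 0.064 and Hepacam at 0.067, against an own variation of 0.176. For Dnmt1 they were Ppil3 at 0.577, Mag at 0.659 and Nme6 at 0.678, against 1.27. Tet2 was nearest to Trank1 (0.229), Slc9a5 (0.243) and Nos3 (0.249). Dnmt3a was nearest to 2510039O18Rik (0.0995), Med13 (0.101) and Sc5d (0.106), and Mbd3 to Cmpk1 (0.0748), Top2b (0.0867) and Tmed3 (0.0887). Mbd1 was nearest to Ccar1 (0.575), Rnf168 (0.576) and Aurkaip1 (0.632), and Tdg to Fchsd1 (0.787), Rad9b (0.791) and Fam219a (0.837). No tested gene of the 9 was among the nearest 3 of another.

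The other genes of the pathway were followed in 6 lists, of which 73 of 97 symbols were tested. In edgeR, 0 of 73 were called in each of the 3 comparisons, beside the background shares given above. At an unadjusted p below 0.05 there were 4 in KO against WT, 2 in HxD against WT and 5 in KO against HxD. Of all tested genes, 9.48%, 4.05% and 11.6% had such a p in these comparisons. DESeq2 called 1 in KO against HxD and 0 in the other comparisons, and limma-voom 0 in all. Over the 73 genes the median log2 fold change was 0.06 in KO against WT, 0.02 in HxD against WT and 0.05 in KO against HxD. Genes above 0 numbered 41, 41 and 42 in these comparisons, beside 5950, 5994 and 5874 of all 11693 tested genes.

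Partners in setting and keeping methylation came first. In this list 7 of 13 genes were tested, and Dnmt3b, the de novo methyltransferase of early development, was listed at 0 in all 12 libraries. Uhrf1, which guides DNMT1 to newly copied DNA, held 4 to 23 estimated counts per library and did not pass the filter. Its paralog Uhrf2, a reader of 5-hydroxymethylcytosine, stood at 52.9, 50.5, 53.0 and 42.9 CPM in KO 1 to 4, at 61.8, 69.9, 75.9 and 59.1 CPM in HxD 1 to 4, and at 74.5, 48.8, 77.1 and 47.5 CPM in WT 1 to 4. All KO libraries lay below all HxD libraries and overlapped with WT (KO against HxD log2 fold change -0.42 ± 0.17 SE, edgeR adjusted p = 0.384). The list had 1 of 7 genes above 0 in KO against WT, 5 in HxD against WT and 0 in KO against HxD. Trim28, a co-repressor that keeps imprints, had log2 fold changes of 0.13 ± 0.07 in HxD against WT and -0.16 ± 0.07 in KO against HxD (adjusted p = 0.999 and 0.438). Ehmt1 and Ehmt2, histone H3 lysine methyltransferases, had -2.90 ± 2.03 in KO against WT and 0.53 ± 0.60 in HxD against WT, and Ehmt1 was listed at 0 in 7 of 12 libraries.

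Of the other methyl-CpG readers and genes grouped with them, 9 of 10 were tested. Zbtb33, the Kaiso protein, which binds methylated CpG with zinc fingers, stood at 39.1, 41.8, 45.1 and 34.9 CPM in KO 1 to 4, at 52.4, 48.2, 47.2 and 50.9 CPM in HxD 1 to 4, and at 49.5, 44.8, 44.4 and 42.3 CPM in WT 1 to 4. KO lay wholly below HxD and overlapped with WT. Its KO against HxD log2 fold change was -0.30 ± 0.10 (edgeR adjusted p = 0.261), and DESeq2 called it at an adjusted p of 0.0388. Mbd5, an MBD protein tied to neurodevelopmental disorders in humans, stood at 7.71, 52.0, 58.1 and 34.0 CPM in KO 1 to 4, all below the 68.2 to 72.8 CPM of HxD and the 67.1 to 76.2 CPM of WT. The KO values themselves were spread over 7.5-fold, and the log2 fold change against WT was -0.88 ± 0.43 (adjusted p = 0.578). Atf7ip and Mbd4 led HxD against WT with -0.19 ± 0.10 and -0.36 ± 0.24, both at an adjusted p of 0.999. Over the list 2 of 9 genes were above 0 in KO against WT and 5 in HxD against WT.

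**Figure D5:**
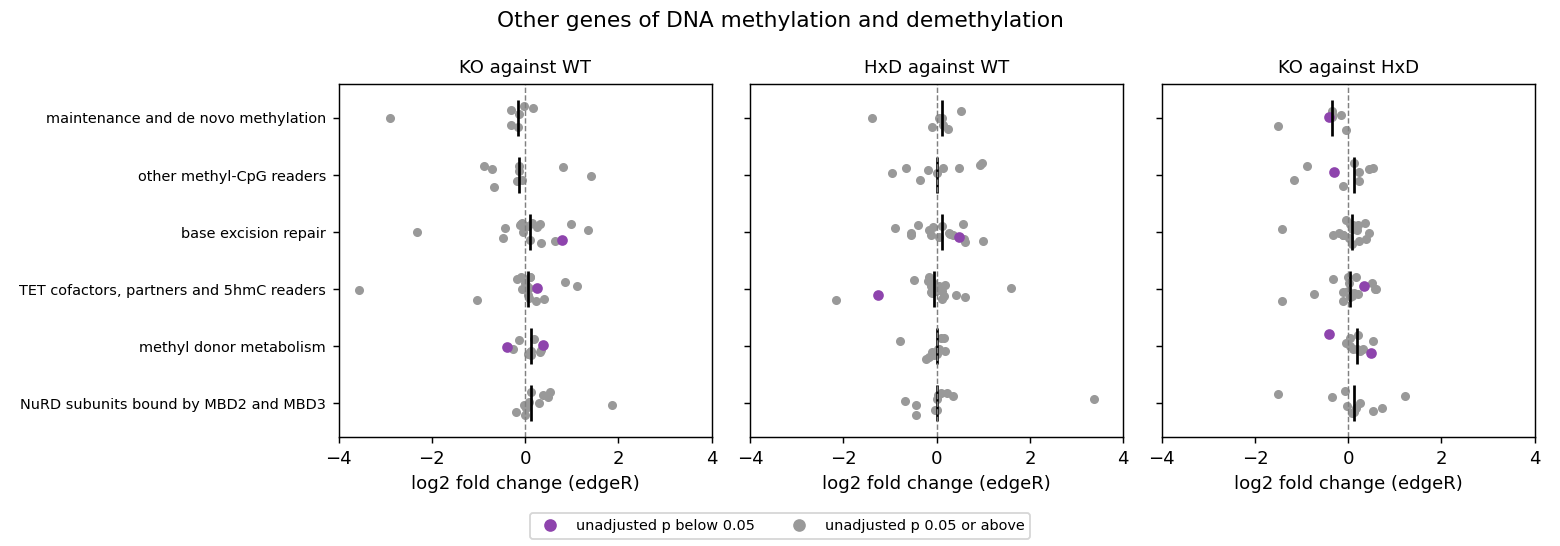
Log2 fold change from edgeR (horizontal axis) of the tested genes of 6 lists (rows) in KO against WT, HxD against WT and KO against HxD, 1 point per gene, purple for an unadjusted p below 0.05, with a line at the median of each list. Most medians lie near 0, with the lowest, -0.36, in KO against HxD for maintenance and de novo methylation.

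Base excision repair, which completes demethylation after TDG, had 17 of 22 genes tested. Gadd45b, an activity-induced gene linked to DNA demethylation, stood at 34.9, 47.6, 45.02 and 24.3 CPM in KO 1 to 4, at 19.0, 39.6, 29.7 and 44.8 CPM in HxD 1 to 4, and at 20.2, 32.1, 14.5 and 21.4 CPM in WT 1 to 4. Groups overlapped, and the KO against WT log2 fold change was 0.78 ± 0.32 (edgeR adjusted p = 0.476). Gadd45g had 0.35 ± 0.19 in KO against WT and 0.47 ± 0.19 in HxD against WT. Parp1, a sensor of DNA breaks, had -0.20 ± 0.10 in KO against HxD (adjusted p = 0.484). The Gadd45g adjusted p-values were 0.615 and 0.999.

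Methyl donor genes had 11 of 14 tested. Mat2a, the catalytic subunit of the enzyme that makes S-adenosylmethionine, stood at 131, 100.2, 127 and 101 CPM in KO 1 to 4, at 99.8, 117, 64.5 and 89.8 CPM in HxD 1 to 4, and at 83.9, 87.3, 88.1 and 90.2 CPM in WT 1 to 4. KO lay wholly above WT and overlapped with HxD (KO against WT log2 fold change 0.39 ± 0.16, edgeR adjusted p = 0.474). Mat2b, its regulatory subunit, stood at 188 ± 20.3 CPM in KO, 133 ± 19.5 in HxD and 149 ± 30.2 in WT (SD, n = 4 each), with all KO libraries above all HxD libraries and a log2 fold change of 0.50 ± 0.16 between them (adjusted p = 0.259). Mtr, the methionine synthase, went the other way at 21.4 ± 3.07 CPM in KO, 28.5 ± 2.85 in HxD and 28 ± 4.298 in WT (KO against WT -0.39 ± 0.15, adjusted p = 0.433). Ahcy, which removes S-adenosylhomocysteine, had 0.15 ± 0.13 in HxD against WT.

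Cofactors, partners and readers around the TET enzymes had 18 of 25 tested. Idh2, a mitochondrial isocitrate dehydrogenase that makes the TET cosubstrate 2-oxoglutarate, stood at 64.5 ± 8.70 CPM in KO, 51.3 ± 2.36 in HxD and 54.0 ± 6.21 in WT (SD, n = 4 each). Its log2 fold changes were 0.26 ± 0.12 in KO against WT and 0.33 ± 0.12 in KO against HxD (edgeR adjusted p = 0.525 and 0.316), with overlapping libraries. Idh3g, of the same step of the citric acid cycle, had 0.59 ± 0.34 in KO against HxD. Thyn1, found as a binder of 5-hydroxymethylcytosine, stood at 15.1, 4.14, 2.35 and 10.2 CPM in KO 1 to 4, at 4.95, 10.9, 4.45 and 7.02 CPM in HxD 1 to 4, and at 24.2, 13.7, 11.3 and 15.8 CPM in WT 1 to 4. HxD lay wholly below WT, in a comparison where 3.48% of tested genes lay wholly apart, with a log2 fold change of -1.25 ± 0.54 (adjusted p = 0.999). Ep300, an acetyltransferase, had -0.18 ± 0.11 in HxD against WT.

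NuRD, the complex that MBD2 and MBD3 join in turn, had 11 of 13 subunits tested. Gatad2a, a zinc finger subunit that binds MBD2, held 0, 1, 12 and 85 estimated counts in KO 1 to 4, 104, 106, 77 and 111 in HxD 1 to 4, and 0, 0, 8 and 33 in WT 1 to 4. HxD lay wholly above WT, and KO spanned both (HxD against WT edgeR adjusted p = 0.999, unadjusted p = 0.0715). Chd4, the remodelling ATPase, stood at 91.1 ± 38.7 CPM in KO against 39.4 ± 21.1 in HxD (log2 fold change 1.21 ± 0.55, adjusted p = 0.430). Cdk2ap1, a small subunit, had 0.48 ± 0.29 in KO against WT. The list median was 0.13 in KO against WT, with 8 of 11 above 0, and 0.00461 in HxD against WT, with 7 of 11 above 0.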

How the data were processed

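RNA of 12 adult mouse cortex libraries (KO, HxD and WT, 4 each, grouped by the label title) was analysed from 1 table. The authors deposited estimated counts per gene symbol without normalization, as whole numbers, and FastQC, Trim Galore 0.6.7, STAR 2.7.1a, SAMtools 1.9, StringTie 2.2.3 and the builds GRCm39 and mm10 are named without role or order, per the submitters' processing notes. The sources used here do not give the strand setting or the counting rule. Of 21769 rows, 25 symbols on several rows (56 rows) were left out. Depths are given in the text, and they limit counting error only.

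Counts were tested with edgeR 4.0.16 in R 4.3.3 (quasi-likelihood F test, robust fit, TMM factors of 0.968 to 1.02, filterByExpr at a minimum count of 10), all 12 libraries in 1 fit with genotype as the term, two-sided, with Benjamini-Hochberg adjustment over 11693 genes at 0.05. SE and 95% intervals come from the F statistic. Lengths are those of GENCODE M21 and promoters those of RefSeq. Alternatives used DESeq2 1.42.0, limma 3.58.1 (voom), other factors and filters, the 8 libraries compared, a replicate block and each library left out. Scripts were tested on simulated data.

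Named genes were the 9 genes, up to 4 called members of each pathway list per comparison (or the 2 with the smallest p), and the 3 most like profiles per tested gene. Some genes that this rule takes are left out. The genes, lists and tests were chosen with earlier results of these data known. Same-numbered libraries did not deviate together (correlations of -0.0708 to 0.0779 over 12 pairs), so the numbers were not taken to pair them. Pairs of unlike number ranged from -0.118 to 0.0683. In WT and HxD, neuronal marker sums were lower in libraries 1 and 3 than in 2 and 4. They were 6874, 9338, 6323 and 7763 CPM in WT 1 to 4 and 6030, 9193, 5142 and 8313 in HxD 1 to 4. KO 1 to 4 did not split so, at 7566, 7609, 8641 and 9071 CPM. Between WT and HxD, the deviations of libraries 1 and 3 correlated with those of 2 and 4 at -0.118 to -0.0113. Within these sets the correlations between WT and HxD were -0.0143 to 0.0779. The part of this split in the gene values was not tested.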

Additional observations from a re-analysis of the deposited data

Results flagged for a closer look

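Among 22 sets of 4 libraries with any spread, 2 had a library far from the other 3, where chance gives about 1 in 20. Dnmt1 stood at 9.74 CPM in KO 4, against 84.3 to 98.0 CPM in KO 1 to 3. Dnmt1 also stood at 7.38 CPM in HxD 3, against 89.7 to 104.8 CPM in the other HxD libraries.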

How the results depend on the processing

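The 7 tested genes in 3 comparisons gave 21 fold changes, each recomputed under 23 alternatives, 3 of them added after the data were seen. The DESeq2 Wald test called 1 gene, Mbd2, in KO against WT and 1, again Mbd2, in KO against HxD, where edgeR called 0. In the other 22 alternatives Mbd2 was called in neither, with adjusted p-values of 0.166 to 0.583 and 0.15 to 0.627, and its log2 fold change stayed between 0.27 and 0.38 and between 0.26 and 0.34. Of the uncalled fold changes, 16 of 21 changed sign in some alternative. DESeq2 called 1 pathway gene in KO against HxD. The counts over all genes moved more: DESeq2 called 288 genes in KO against WT, 396 in KO against HxD and 172 in HxD against WT, where edgeR called 18, 119 and 105. In KO against WT the count was 0 with limma-voom (1137 at an unadjusted p below 0.05) and 0 with only the 8 libraries compared (1171), 5 with the replicate block, 9 without HxD 3 and KO 4, 7 without WT 3, HxD 3 and KO 4, 10 at an adjusted p below 0.01 and 33 below 0.1. Leaving out 1 library gave 12 to 35 there (35 without WT 4, 12 without WT 2), 91 to 109 in HxD against WT and 97 to 137 in KO against HxD, and 0 of the 7 genes and 0 pathway genes were called in any such fit. The causes were not tested. With the replicate number as a block, 0 of the 7 genes were called, and the counts over all genes were 74 in HxD against WT and 95 in KO against HxD. Of 12 libraries, 2 correlated best with their own number in both other genotypes. Mbd1 and Tdg had 95% intervals that span several-fold changes, and Tet1 held at most 67 counts in a library.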
